A study of Homo sapiens with 12 samples.

Results

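Messenger RNA levels of 10 genes of the Notch pathway were followed in A549 cells, an established human lung adenocarcinoma line that grows attached to the dish. The genes were chosen by name: the receptors NOTCH1, NOTCH2 and NOTCH3, the ligands JAG1, JAG2 and DLL1, and the response genes HES1, HES4, HEY1 and NRARP. They are 10 of the 58735 genes in the count table. All 10 were among the 17829 genes that passed the filter on low counts, DLL1 only through libraries of the control cells described below. The RNA-Seq libraries formed 4 groups of 3: attached control cells, attached GFI1-expressing cells, and control and GFI1-expressing cells that had been forced into suspension for 48 hours, here called floating. The 4 groups shared the parental line and the medium, RPMI1640 with serum, and the labels name no other allele or agent in any group. GFI1, a zinc-finger repressor that acts in the development of blood cells, was introduced with a lentiviral vector under the human PGK promoter that also encodes eGFP, and transduced cells were sorted by that marker. Whether an empty vector was present in the controls is not stated in the labels, so any effect of transduction cannot be told apart from that of GFI1. They also do not state that the replicates came from separate cultures, so the p-values measure the spread between these libraries, which may be technical.

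Notch receptors are single-pass membrane proteins that are activated by ligands of the Delta and Jagged families on a neighbouring cell. Ligand binding exposes the receptor to cleavage by an ADAM protease and then by gamma-secretase. The released intracellular domain enters the nucleus, joins the DNA-binding protein RBPJ and a Mastermind coactivator, and switches on genes of the HES and HEY families, which encode repressors, and NRARP, which encodes a feedback inhibitor. In the lung, Notch signalling is known for its part in the choice between secretory, ciliated and neuroendocrine cell fates.

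The stretches before the RefSeq start sites of HES1 and HES4 are shown because they carry TGGGAA, the core sequence read by RBPJ. NRARP, also a response gene, did not hold it near its start site, while 24.0% of all human promoter windows examined did. The sequences are those of RefSeq on GRCh38.p14, cover the 60 bases from 100 to 41 before the start site, and are given 5′ to 3′ on the strand of the gene with TGGGAA in capitals. HES1 is read on the plus strand at chr3:194136048-194136107 and HES4 on the minus strand at chr1:1000138-1000197. Start sites are those of RefSeq. As counted here, HES4 has its 5′ end at 1000172, so its stretch lies partly inside the counted gene, with TGGGAA across that end.
HES1: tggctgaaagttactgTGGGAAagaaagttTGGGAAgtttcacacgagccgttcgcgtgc
HES4: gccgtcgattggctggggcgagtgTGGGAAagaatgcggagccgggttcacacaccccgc

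RefSeq promoter windows, from 250 bases before to 50 bases after the start site, were matched for 8 of the 10 genes, all but DLL1 and HEY1. On either strand, TGGGAA occurred 2 times in the HES1 window, with first bases at -84 and -70, once in that of HES4, at -76, and in none of the other 6. Of 35116 human promoter windows of this length, 24.0% held at least 1 copy and 3.8% at least 2. AATC, the core of the sequence bound by GFI1, occurred 3 times in the window of HES1, 1 time in that of HES4 and 1 time in that of NRARP, and 69.0% of all windows held it on either strand. CACGTG, an E-box, was in none of the 8 windows and in 7.26% of all windows. The motifs share no bases with each other in these windows. A match describes the letters only, and occupancy of these stretches was not measured.

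Libraries held from 17014188 to 20748677 counts. GFI1 itself ran from 0.238 to 0.711 CPM (counts scaled by TMM to a common library size) in the 6 control libraries, from 285.6 to 294.4 CPM in attached and from 430.2 to 705.5 CPM in floating GFI1 libraries, so no library went against its label as control or GFI1. Floating GFI1 replicates 2 and 3 differed most among replicates of a group, with a chi-square per gene of 11.9 against 2.01 to 5.01 for the other pairs. Of the 5 epithelial markers examined, KRT8, KRT18 and CDH1 were abundant in control cells, while EPCAM was at 1.97 to 2.25 CPM and KRT19 at 1.11 to 1.90 CPM on average. The 5 together summed to 8307 to 8822 CPM in attached control and 2478 to 2564 CPM in attached GFI1 libraries, and to 5296 to 5660 CPM in floating control and 1894 to 2196 CPM in floating GFI1 libraries. CDH1, which encodes E-cadherin, averaged 119.8 CPM in attached control and 6.45 CPM in attached GFI1 cells. KRT8 and KRT18 made up most of the sum, and EPCAM, KRT8, KRT18 and CDH1 fell with GFI1 in both states. KRT19 went the other way in attached cells, from 1.11 to 1.97 CPM (log2 0.82 ± 0.32 SE, adjusted p 0.0314 by edgeR's quasi-likelihood test). In floating cells its rise was not called (0.57 ± 0.29, adjusted p 0.0868). The 5 endothelial markers summed to at most 0.722 CPM in control libraries and to 3.65 to 5.62 CPM in GFI1 libraries, mostly through CDH5, with KDR and TEK at 3 counts or fewer in every library. The 5 neuroendocrine markers summed to 6.67 to 8.31 CPM in control and 8.71 to 10.9 CPM in GFI1 libraries, mostly SYP, with NEUROD1 and INSM1 at 2 counts or fewer. The 5 fibroblast markers, nearly all COL1A1, summed to 9.91 to 14.3 CPM in control and 3.53 to 7.44 CPM in GFI1 libraries with DCN at 0. The 5 blood markers summed to 0.496 to 1.42 CPM over all libraries with CD3E at 0. The epithelial, neuroendocrine, endothelial and fibroblast sums did not overlap between control and GFI1 libraries of the same state, the blood sum overlapped in attached cells, and the part of these markers in the results below was not tested. In bulk RNA, fewer cells that express a gene and less of its RNA per cell cannot be told apart.

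Expression of GFI1 was accompanied by a shift of the receptor mRNAs towards NOTCH3. NOTCH1 and NOTCH2 were lower and NOTCH3 was higher with GFI1 in both attached and floating cells. Among the ligands and response genes, DLL1, HES1 and HEY1 were lower with GFI1 in both states, whereas JAG2 and NRARP were lower with GFI1 in attached cells and higher with GFI1 in floating cells. In attached cells, edgeR's quasi-likelihood test at an adjusted p of 0.05 called 1 of the 10 genes higher with GFI1 and 8 lower, and 3 of these differed at least 2-fold. Over all genes tested, 62.3% were called, 29.5% higher and 32.8% lower, and 18.2% were called with a fold change of at least 2. The median log2 fold change was -0.44 over the 10 genes and -0.01 over all genes tested. In floating cells, 4 of the 10 were called higher with GFI1 and 5 lower, 3 of them at least 2-fold, where 60.4% of all genes were called, 29.3% higher and 31.1% lower, and 17.3% at least 2-fold. The medians were -0.38 over the 10 genes and 0.01 over all genes tested. DLL1, counted as lower by at least 2-fold in both states, passed the filter only through its control libraries. With so large a share of all genes called, a count of 9 in 10 in each state describes these genes and sets them little apart, and JAG2 and NRARP in attached cells did not keep their calls under every alternative.

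Suspension of control cells was followed by higher NOTCH3, DLL1 and HEY1 and by lower NOTCH1, NOTCH2, JAG1, JAG2, HES4 and NRARP. Thus 3 of the 10 genes were called higher and 6 lower, and 1 of them, HEY1, at least 2-fold. Over all genes tested, 40.1% were called, 19.6% higher and 20.5% lower, and 5.1% at least 2-fold. In GFI1-expressing cells, JAG2 and HEY1 were called higher after suspension and NOTCH1 and NOTCH2 lower, which is 2 genes in each direction with 1 at least 2-fold, where 31.3% of all genes were called, 15% higher and 16.3% lower, and 2.8% at least 2-fold. The 2-fold call, HEY1, rested on floating GFI1 replicate 2, without which it was 0.48 on the log2 scale (edgeR adjusted p 0.382). Calls of NOTCH2 in both kinds of cell, and of NOTCH1 and DLL1 in control cells, were also lost under some alternatives. Median log2 changes with suspension were -0.16 over the 10 genes in control cells and 0.05 in GFI1 cells, against 0.01 and 0.00 over all genes. The interaction, which tests whether the GFI1 effect differed between floating and attached cells, was called for 5 of the 10 genes, positive for JAG1, JAG2, HES4 and NRARP and negative for NOTCH3. Of all genes, 10.8% were called in the interaction, 4.76% positive and 6.01% negative, and 1.35% with a ratio of at least 2, a size that 0 of the 10 genes reached. The comparisons share libraries, since each group enters 2 of the 4 pairwise contrasts, so they are not independent of each other.

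**Figure D1:**
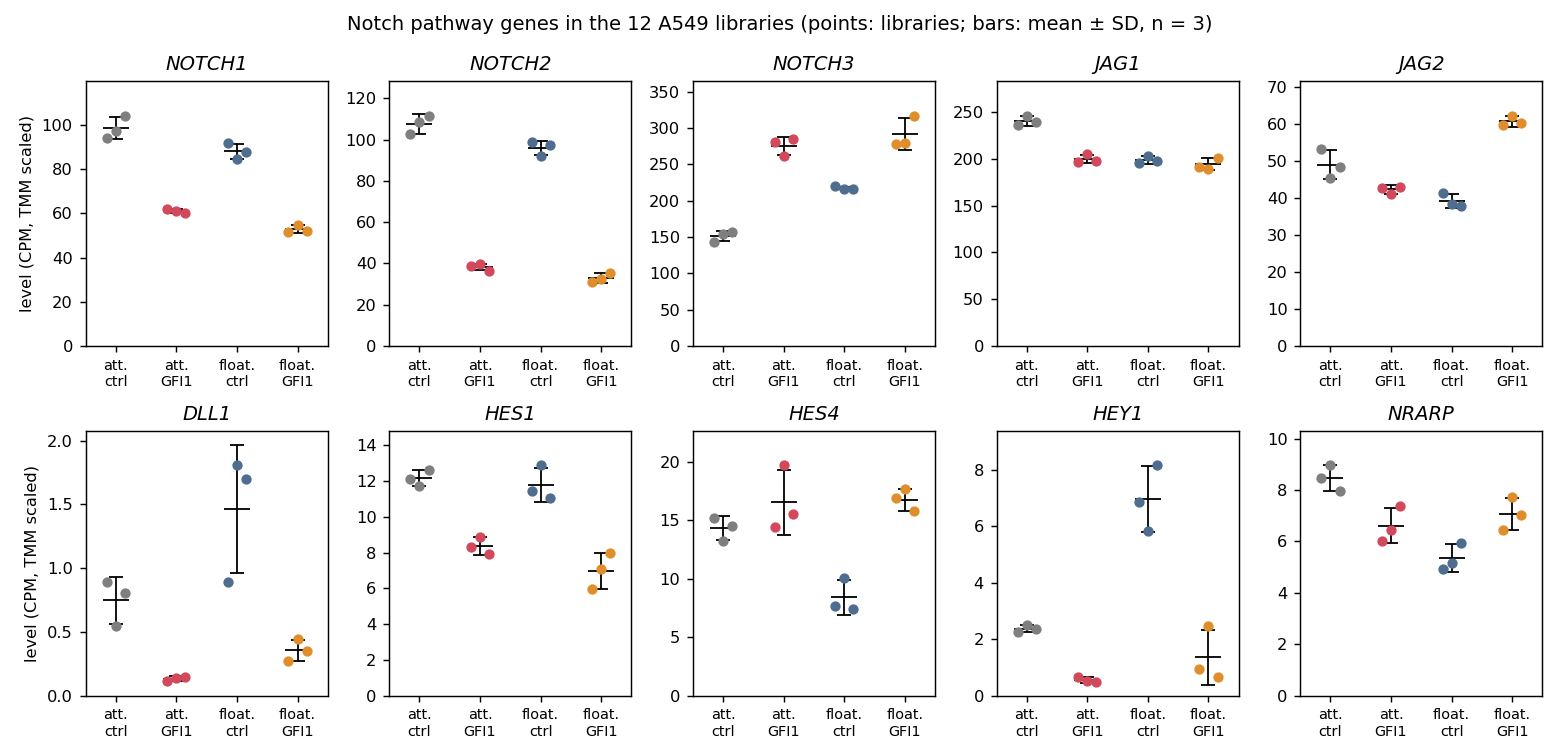
Level of each of the 10 Notch pathway genes (y axis, CPM scaled by TMM, each panel from 0) in the 4 groups (x axis: attached control, attached GFI1, floating control, floating GFI1), where points are libraries and bars are the mean ± SD of 3. NOTCH2 sits between 91.9 and 112 CPM in the 6 control libraries and between 30.9 and 39.7 CPM in the 6 GFI1 libraries, while JAG2 is highest in the 3 floating GFI1 libraries, at 59.6 to 62.2 CPM.

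NOTCH1 (ENSG00000148400, chromosome 9, 136494433 to 136545786, minus strand, GRCh38 as for all positions in the count table) encodes the receptor best known from leukaemia with activating mutations. Its level was 94.3, 97.2 and 104 CPM in the attached control libraries and 61.8, 61.0 and 60.1 CPM in the attached GFI1 libraries. The floating control libraries held 91.6, 84.6 and 87.8 CPM and the floating GFI1 libraries 51.7, 54.9 and 52.2 CPM. All 6 GFI1 libraries lay below all 6 control libraries. The fall with GFI1 was 1.62-fold in attached cells (log2 -0.69 ± 0.05 SE, edgeR adjusted p 2.82e-12) and 1.66-fold when floating (-0.73 ± 0.05, adjusted p 1.59e-12). The smaller fall on suspension was -0.16 ± 0.05 on the log2 scale in control cells (adjusted p 0.007) and -0.20 ± 0.05 in GFI1 cells (adjusted p 0.00261). Without attached control replicate 3, the fall in control cells no longer passed the threshold (-0.12, adjusted p 0.0636). The interaction of -0.04 ± 0.07 was not called (adjusted p 0.789).

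NOTCH2 (ENSG00000134250, chromosome 1, 119911553 to 120069626, minus strand) encodes a widely expressed receptor of the same family. Attached control libraries held 102.5, 108.5 and 112 CPM of its mRNA and attached GFI1 libraries 38.5, 39.7 and 36.5 CPM. Levels in floating cells were 98.6, 91.9 and 97.3 CPM in control and 30.9, 32.6 and 35.6 CPM in GFI1 libraries. No GFI1 library reached the level of a control library, and the gap was the widest among the 3 receptors. With GFI1, NOTCH2 fell 2.81-fold in attached cells (log2 -1.49 ± 0.05, adjusted p 4.99e-18) and 2.90-fold when floating (-1.53 ± 0.06, adjusted p 5.04e-18). On suspension it fell by 0.16 ± 0.05 on the log2 scale in control cells (adjusted p 0.0107) and by 0.21 ± 0.06 in GFI1 cells (adjusted p 0.00888). Neither suspension call was stable to single libraries: the first was lost without attached control replicate 3 (adjusted p 0.0616) or floating control replicate 2 (0.0675), the second without attached GFI1 replicate 2 (0.0679) or floating GFI1 replicate 1 (0.0565). The interaction was -0.04 ± 0.08 (adjusted p 0.805). NOTCH2 has near-identical partial copies, the NOTCH2NL genes, and how reads that fit several genes were counted is not given in the sources used here, so its level is uncertain to that extent. Of these copies, the table holds NOTCH2NLA, which averaged 0.423 to 1.17 CPM per group.

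NOTCH3 (ENSG00000074181, chromosome 19, 15159038 to 15200981, minus strand), a receptor known for its role in vascular smooth muscle, moved the other way. It was at 144, 154 and 157 CPM in attached control libraries and at 280.3, 261 and 284.5 CPM in attached GFI1 libraries. Floating control libraries lay between these, at 219.7, 216 and 217 CPM, and floating GFI1 libraries were at 278, 279 and 317 CPM. NOTCH3 rose with GFI1, 1.81-fold in attached cells (log2 0.86 ± 0.05, adjusted p 1.46e-13) and 1.34-fold when floating (0.42 ± 0.05, adjusted p 7.07e-08). Suspension raised it 1.43-fold in control cells (0.52 ± 0.05, adjusted p 9.68e-09), while in GFI1 cells the libraries of the 2 states overlapped (0.08 ± 0.05, adjusted p 0.227). The smaller GFI1 effect in floating cells passed the test of the difference itself, with an interaction of -0.44 ± 0.07 (adjusted p 0.000147).

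Compared per length, the 3 receptors together changed less with GFI1 than each of them did. Their summed level per kilobase of gene was 32.0 ± 1.48 CPM per kb in attached control, 37.5 ± 1.24 in attached GFI1, 37.3 ± 0.73 in floating control and 38.1 ± 2.45 in floating GFI1 libraries (SD, n = 3 each). The ranges of the last 3 groups overlapped, and that of attached control cells, 30.5 to 33.4, lay below them. NOTCH3 made up 50.4 ± 0.49% of this sum in attached control and 78.2 ± 1.03% in attached GFI1 cells, and 62.0 ± 0.72% in floating control and 81.4 ± 1.06% in floating GFI1 cells. The share of NOTCH1 was 29.6%, 15.7%, 22.7% and 13.4% in these groups, in the same order, and that of NOTCH2 was 19.97%, 6.08%, 15.3% and 5.16%. For each of the 3 shares, no GFI1 library overlapped with a control library of the same state. With 3 libraries against 3, an exact permutation test of such a share cannot give a two-sided p below 0.10, so these shares are given as a description. Their absolute size depends on the gene lengths used, 10377 bases for NOTCH1, 16807 for NOTCH2 and 9394 for NOTCH3. Lengths of the transcripts expressed here were not determined, and the uncertain level of NOTCH2 also enters the sum.

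**Figure D2:**
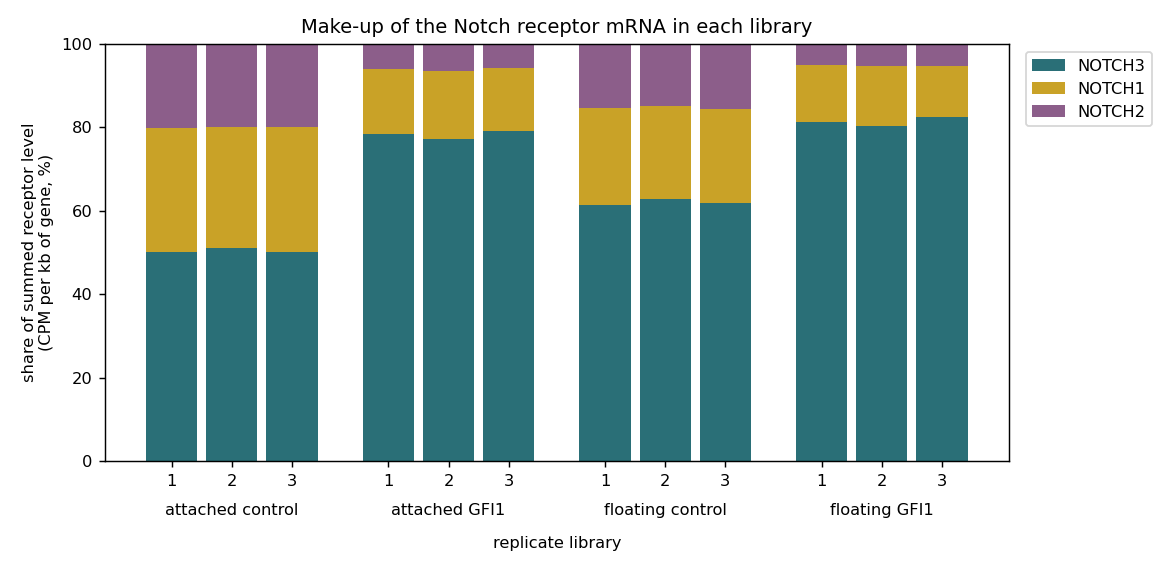
Make-up of the receptor mRNA in each of the 12 libraries (x axis, replicate within group), as the share of NOTCH3, NOTCH1 and NOTCH2 in their summed level in CPM per kb of gene (y axis, percent). NOTCH3 holds 50.1% to 51.0% in attached control, 77.1% to 79.2% in attached GFI1, 61.4% to 62.8% in floating control and 80.4% to 82.5% in floating GFI1 libraries.

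JAG1 (ENSG00000101384, chromosome 20, 10637684 to 10673999, minus strand) encodes a Jagged ligand that is active in many epithelia. It was highest in the attached control libraries, at 237, 246 and 239 CPM, and lower in the other groups. Attached GFI1 libraries held 197, 205 and 198 CPM, floating control libraries 196, 203 and 197 CPM, and floating GFI1 libraries 192, 189 and 201 CPM. These last 3 groups overlapped with each other and stayed below every attached control library. The fall with GFI1 in attached cells was 1.20-fold (log2 -0.27 ± 0.04, adjusted p 2.96e-06) and that on suspension of control cells 1.21-fold (-0.28 ± 0.04, adjusted p 4.85e-06). In floating cells the GFI1 effect was -0.03 ± 0.04 (adjusted p 0.492), and with scaling by library size only it turned to 0.10 (adjusted p 0.0464). In GFI1 cells the suspension effect was -0.04 ± 0.04 (adjusted p 0.475). The interaction of 0.23 ± 0.06 passed the threshold (adjusted p 0.00842), and the adjusted p stayed between 0.00244 and 0.0324 under the alternatives.

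JAG2 (ENSG00000184916, chromosome 14, 105140981 to 105168824, minus strand), the second Jagged ligand, had the largest fitted interaction among the members. Those of HES4 (0.78 ± 0.17) and NRARP (0.75 ± 0.18) were within their errors of it. Attached control libraries held 53.1, 45.4 and 48.3 CPM and attached GFI1 libraries 42.8, 41.0 and 43.0 CPM. In floating control libraries it was at 41.3, 38.4 and 37.9 CPM, and in floating GFI1 libraries at 59.6, 62.2 and 60.1 CPM. The floating GFI1 libraries thus lay above the 9 others. With GFI1, JAG2 fell 1.16-fold in attached cells (log2 -0.21 ± 0.06, adjusted p 0.00266) and rose 1.55-fold when floating (0.63 ± 0.06, adjusted p 6.58e-10). Scaling by library size only ended the call in attached cells (-0.06, adjusted p 0.338). Suspension lowered JAG2 1.25-fold in control cells (-0.32 ± 0.06, adjusted p 9.61e-05) and raised it 1.44-fold in GFI1 cells (0.52 ± 0.06, adjusted p 7.48e-08). The interaction of 0.84 ± 0.08 was called (adjusted p 8.43e-08).

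DLL1 (ENSG00000198719, chromosome 6, 170282206 to 170306565, minus strand), a Delta ligand, was the rarest of the 10 mRNAs. Raw counts were 15, 10 and 14 in attached control, 2, 3 and 3 in attached GFI1, 15, 30 and 30 in floating control, and 5, 8 and 7 in floating GFI1 libraries. Every GFI1 library was below every control library of the same state. DLL1 passed the filter on low counts only through its control libraries. It was not tested with at least 10 counts required in every library or, for GFI1 in attached cells, with only the groups compared. Pooled over libraries, the 39 control and 8 GFI1 counts of attached cells gave a ratio of 5.50 (exact 95% interval 2.53 to 13.6), and the 75 and 20 counts of floating cells gave 4.13 (2.50 to 7.15), where the intervals cover counting error only. In the fit, whose value for attached cells rests on the 2 to 3 counts of each GFI1 library and is no bound, the change with GFI1 was -2.41 ± 0.50 on the log2 scale in attached cells (adjusted p 0.000194) and -2.03 ± 0.38 when floating (adjusted p 5.31e-05). The rise on suspension of control cells, 0.97 ± 0.34 (adjusted p 0.0229), was lost with DESeq2 (adjusted p 0.114) and without attached control replicate 2 (0.118), floating control replicate 2 (0.117) or floating control replicate 3 (0.099), and in GFI1 cells the effect of 1.35 ± 0.57 did not pass (adjusted p 0.0767). The interaction was 0.38 ± 0.64 (adjusted p 0.788), so a difference between the states was not detectable at this depth. On the opposite strand, FAM120B overlaps DLL1, shares 370 of its 3819 exon bases in GENCODE v44 and held 607 to 988 counts per library. Since the strand setting of the counting is not given in the sources used here, part of the DLL1 counts may be reads of FAM120B, and the level of DLL1 is uncertain.

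**Figure D3:**
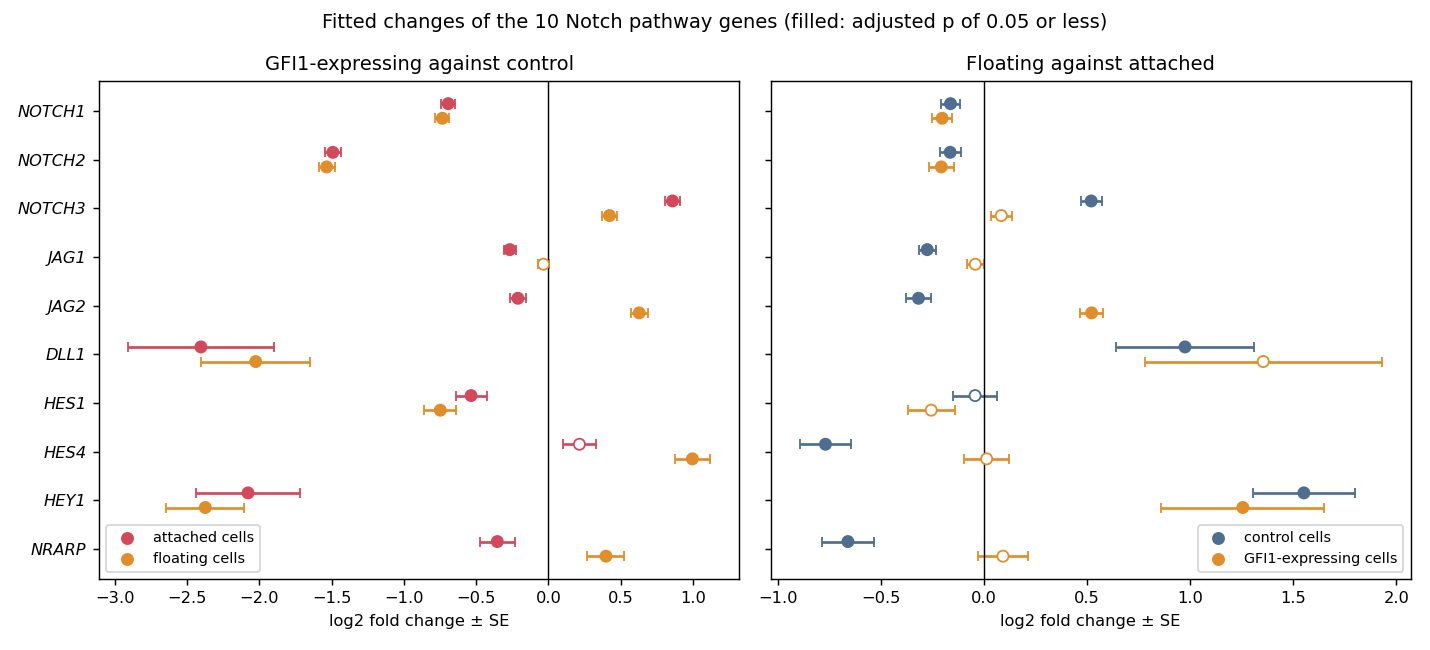
Fitted log2 fold changes ± SE (x axis) of the 10 genes (y axis) for GFI1-expressing against control cells (left, in attached and in floating cells) and floating against attached cells (right, in control and in GFI1-expressing cells), with filled points for an adjusted p of 0.05 or less. JAG2 moves from -0.21 to 0.63 and NRARP from -0.35 to 0.40 between the 2 GFI1 effects, while NOTCH1 and NOTCH2 keep nearly the same value.

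HES1 (ENSG00000114315, chromosome 3, 194136145 to 194138732, plus strand) encodes the repressor that is the most widely used readout of Notch activity. It was at 12.1, 11.7 and 12.6 CPM in attached control and at 8.34, 8.86 and 7.91 CPM in attached GFI1 libraries. Floating control libraries held 11.4, 12.9 and 11.1 CPM and floating GFI1 libraries 5.96, 7.06 and 7.96 CPM. The GFI1 libraries lay below the control libraries in each state. HES1 fell 1.45-fold with GFI1 in attached cells (log2 -0.54 ± 0.11, adjusted p 0.00012) and 1.68-fold when floating (-0.75 ± 0.11, adjusted p 2.47e-06). Suspension gave -0.04 ± 0.10 in control cells (adjusted p 0.781) and -0.26 ± 0.11 in GFI1 cells (adjusted p 0.0943), and the latter passed only without floating GFI1 replicate 3 (-0.36, adjusted p 0.0283). The interaction was -0.21 ± 0.16 (adjusted p 0.457).

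HES4 (ENSG00000188290, chromosome 1, 998962 to 1000172, minus strand), a relative of HES1, held 15.2, 13.25 and 14.5 CPM in attached control and 14.4, 19.7 and 15.5 CPM in attached GFI1 libraries, which overlapped. It was at 7.705, 10.1 and 7.42 CPM in floating control libraries and at 16.9, 17.6 and 15.8 CPM in floating GFI1 libraries. The floating control libraries lay below the 9 others. Suspension lowered HES4 1.71-fold in control cells (log2 -0.77 ± 0.12, adjusted p 1.76e-05) and left it at 0.01 ± 0.11 in GFI1 cells (adjusted p 0.951), where its sign changed when any of 4 libraries was left out singly. With GFI1 it rose 1.996-fold in floating cells, just under the 2-fold rule (0.997 ± 0.12, adjusted p 1.02e-07). The effect in attached cells, 0.21 ± 0.11, was not called (adjusted p 0.0986), but passed with upper quartile scaling, with library size only, with only the groups compared, and without attached GFI1 replicate 1 or floating GFI1 replicate 2, with adjusted p from 0.00613 to 0.0463. Without attached GFI1 replicate 2, its highest library, it was 0.06 (adjusted p 0.646). The interaction of 0.78 ± 0.17 passed (adjusted p 0.00224).

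The 2 HES genes, whose promoter stretches are shown above, thus did not move together. Per kilobase of gene, HES4 exceeded HES1 2.18 ± 0.13 times in attached control, 3.64 ± 0.46 times in attached GFI1, 1.31 ± 0.12 times in floating control and 4.50 ± 0.80 times in floating GFI1 libraries (SD, n = 3 each). The ratio was higher in all 3 GFI1 libraries than in all 3 control libraries of the same state.

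NRARP (ENSG00000198435, chromosome 9, 137300482 to 137302251, minus strand), the feedback inhibitor of the pathway, had GFI1 effects of the same sign as those of JAG2. Its level was 8.46, 8.96 and 7.98 CPM in attached control, 6.03, 6.46 and 7.36 CPM in attached GFI1, 4.92, 5.18 and 5.95 CPM in floating control and 6.45, 7.72 and 7.01 CPM in floating GFI1 libraries. Control and GFI1 libraries did not overlap in either state, although the gap was narrow. NRARP fell 1.28-fold with GFI1 in attached cells (log2 -0.35 ± 0.12, adjusted p 0.0128) and rose 1.32-fold when floating (0.40 ± 0.13, adjusted p 0.0094). The call in attached cells was lost with DESeq2 (adjusted p 0.0614), with library size only (0.139) and without attached control replicate 2 (0.0544) or attached GFI1 replicate 1 (0.0617). Suspension lowered it 1.58-fold in control cells (-0.66 ± 0.13, adjusted p 0.000137) and gave 0.09 ± 0.12 in GFI1 cells (adjusted p 0.626). The interaction of 0.75 ± 0.18 passed the threshold (adjusted p 0.00535).

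HEY1 (ENSG00000164683, chromosome 8, 79764010 to 79767863, minus strand) encodes a repressor of the HEY family with a known role in vascular development, and spanned the widest range of group means among the 10 genes, 3.39 on the log2 CPM scale. It was at 2.26, 2.50 and 2.35 CPM in attached control libraries, at 0.676, 0.508 and 0.501 CPM in attached GFI1 libraries and at 6.88, 5.84 and 8.16 CPM in floating control libraries. The floating GFI1 libraries were uneven, at 0.938, 2.48 and 0.647 CPM, with replicate 2 far above replicates 1 and 3. In each state, all GFI1 libraries lay below all control libraries. With GFI1, HEY1 fell 4.23-fold in attached cells (log2 -2.08 ± 0.36, adjusted p 1.92e-05) and 5.19-fold when floating (-2.38 ± 0.27, adjusted p 3.14e-08), and the latter became -3.13 on the log2 scale without floating GFI1 replicate 2. Suspension raised it 2.93-fold in control cells (1.55 ± 0.25, adjusted p 1.55e-05). The rise in GFI1 cells, 1.25 ± 0.40 (adjusted p 0.0168), rested on floating GFI1 replicate 2, without which it was 0.48 (adjusted p 0.382). It also failed with only the groups compared (adjusted p 0.053) and without attached GFI1 replicate 2 (0.055) or 3 (0.0548). That library was also the one with the most GFI1 mRNA, 705.5 CPM against 544.6 and 430.2 CPM in the other floating GFI1 libraries, and the part of this in the result was not tested. The interaction was -0.30 ± 0.50 (adjusted p 0.788).

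Ordered by level per kilobase of gene, JAG1 led in attached control cells with 25.9 CPM per kb and NOTCH3 followed with 16.2. NOTCH3 led in the other groups, with 29.3 in attached GFI1, 23.2 in floating control and 31.0 in floating GFI1 cells, and JAG1 followed with 21.5, 21.4 and 20.9. In attached control cells the order went on with HES4 at 12.8, NOTCH1 at 9.50, JAG2 at 7.65, NOTCH2 at 6.40, HES1 at 5.89 and NRARP at 4.78, where NOTCH2 and HES1 overlapped in range. HEY1 and DLL1 closed the order in every group, at 0.734 and 0.231 CPM per kb in attached control cells and at 0.174 and 0.0415 in attached GFI1 cells. NOTCH2 went from the sixth place in attached control cells to the eighth in GFI1 cells of either state, at 2.28 and 1.97 CPM per kb. Neighbours with overlapping ranges were HES1 and NRARP in both GFI1 groups, and NOTCH1 with HES4, JAG2 with HES1 and HES1 with NOTCH2 in floating control cells.

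Another 47 genes of the pathway were examined by role, and 44 of them passed the filter on low counts. With GFI1, 23 were called higher and 9 lower in the attached state and 22 higher and 8 lower in the floating state, with a median log2 fold change of 0.25 and 0.24. Over all genes tested, 29.5% were higher and 32.8% lower in the first and 29.3% and 31.1% in the second, with medians of -0.01 and 0.01. Suspension gave 17 higher and 12 lower calls in control cells and 16 higher and 8 lower in GFI1 cells, with medians of 0.06 and 0.09, where 40.1% and 31.3% of all genes were called. The interaction was called for 3 genes upward and 5 downward, against 4.76% and 6.01% of all genes. Of the receptors and ligands, NOTCH4 averaged 0.737 to 1.04 CPM and was called in none of the 5 comparisons. DLL3, a Delta ligand that inhibits the pathway from within the cell, averaged 12.8 CPM in attached control, 8.50 in attached GFI1, 10.2 in floating control and 8.61 in floating GFI1 cells. It fell with GFI1 in attached cells (log2 -0.59 ± 0.11, adjusted p 4.33e-05) and on suspension of control cells (-0.33 ± 0.11, adjusted p 0.0187), and was at -0.25 ± 0.11 with GFI1 in floating cells (adjusted p 0.0628). DLL4, HES5 and HEY2 did not pass the filter and were not tested. DLL4 held 10 to 13 counts in attached control, 0 to 6 in attached GFI1, 4 to 7 in floating control and 7 to 9 in floating GFI1 libraries.

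The glycosyltransferases modify the receptors and so set which ligands they answer to, and 5 of them were tested. LFNG, which encodes the Lunatic Fringe enzyme, averaged 13.4 CPM in attached control, 61.7 in attached GFI1, 26.5 in floating control and 57.7 in floating GFI1 cells. It rose 4.59-fold with GFI1 in attached cells (log2 2.20 ± 0.08, adjusted p 1.62e-18) and 2.18-fold when floating (1.12 ± 0.07, adjusted p 2.92e-13). On suspension it rose 1.97-fold in control cells (0.98 ± 0.08, adjusted p 6.39e-10) and was at -0.09 ± 0.06 in GFI1 cells (adjusted p 0.288). Its interaction of -1.08 ± 0.10 (adjusted p 8.46e-08) had the sign of that of NOTCH3. Of the 5 enzymes, 2 were called higher and 1 lower with GFI1 in the attached state, against 3 and 0 in the floating state, beside 62.3% and 60.4% of all genes called in either direction.

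Among the 9 genes of receptor cleavage, 5 were called higher and 2 lower with GFI1 in each state, all by less than 2-fold, where 62.3% and 60.4% of all genes were called. ADAM17, which encodes a sheddase of the receptor, was among the genes with a lower interaction (-0.24 ± 0.07, adjusted p 0.0167). Of the 12 genes of ligand endocytosis, trafficking and ubiquitin ligases, 9 were called higher and 2 lower with GFI1 in the attached state, against 8 and 2 in the floating state, and the same shares of all genes apply. FBXW7, which encodes the ubiquitin ligase subunit that marks the intracellular domain for breakdown, rose from 15.4 to 44.9 CPM on average in attached cells (log2 1.55 ± 0.07, adjusted p 1.61e-15) and from 20.8 to 55.7 CPM when floating (1.42 ± 0.07, adjusted p 3.17e-15). The Deltex genes DTX3 and DTX4 moved in opposite directions, with DTX3 at 1.22 ± 0.07 and 1.35 ± 0.07 in attached and floating cells and DTX4 at -1.05 ± 0.10 and -1.29 ± 0.10 (adjusted p at most 7.77e-10 for the 4 values). Suspension of control cells lowered the ubiquitin ligase genes NEURL1B (-0.72 ± 0.09, adjusted p 3.04e-07) and DTX2 (-0.68 ± 0.07, adjusted p 5.23e-09), and both also fell in GFI1 cells, by 0.37 ± 0.08 (adjusted p 0.000474) and 0.59 ± 0.06 (adjusted p 4.13e-08). NEURL1, chosen after its values were seen, had the largest fitted GFI1 effect of the list in attached cells at a low level, 0.517 CPM in attached control and 3.26 CPM in attached GFI1 cells (2.66 ± 0.26, adjusted p 2.09e-09).

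In the nuclear complex and its corepressors, 6 of 12 genes were called higher and 2 lower with GFI1 in the attached state, against 6 and 3 in the floating state, where 62.3% and 60.4% of all genes were called. The Mastermind coactivator gene MAML2 fell with GFI1 by 0.74 ± 0.10 on the log2 scale in attached cells (adjusted p 8.89e-07) and by 1.08 ± 0.09 when floating (adjusted p 2.2e-10), and rose on suspension in control cells (0.83 ± 0.09, adjusted p 7.13e-08) and in GFI1 cells (0.48 ± 0.11, adjusted p 0.000862). TLE3, a Groucho-family corepressor gene, rose with GFI1 from 59.8 to 117 CPM in the attached state (0.97 ± 0.06, adjusted p 8.24e-14) and from 74.0 to 179 CPM in the floating state (1.27 ± 0.05, adjusted p 1.65e-16). It also rose on suspension of control cells (0.31 ± 0.06, adjusted p 0.000127) and of GFI1 cells (0.61 ± 0.05, adjusted p 1.63e-09). Its relatives TLE4 and TLE1 fell on suspension of GFI1 cells, by 0.92 ± 0.08 (adjusted p 2.1e-09) and 0.44 ± 0.05 (adjusted p 1.77e-07), and on suspension of control cells, by 0.61 ± 0.08 (adjusted p 6.43e-07) and 0.48 ± 0.05 (adjusted p 2.63e-08). Interactions were called upward for TLE3 (0.30 ± 0.08, adjusted p 0.0123) and downward for MAML3 (-0.29 ± 0.07, adjusted p 0.006). Of the other HES and HEY family genes, HES7 fell with GFI1 in attached cells (-1.77 ± 0.17, adjusted p 1.9e-09) and less in floating cells (-1.01 ± 0.16, adjusted p 7.8e-06), a difference that passed its own test (0.76 ± 0.24, adjusted p 0.0424). HES7 rose on suspension of GFI1 cells (0.65 ± 0.19, adjusted p 0.0101), and HES2 rose on suspension of control cells (0.65 ± 0.18, adjusted p 0.00621).

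**Figure D4:**
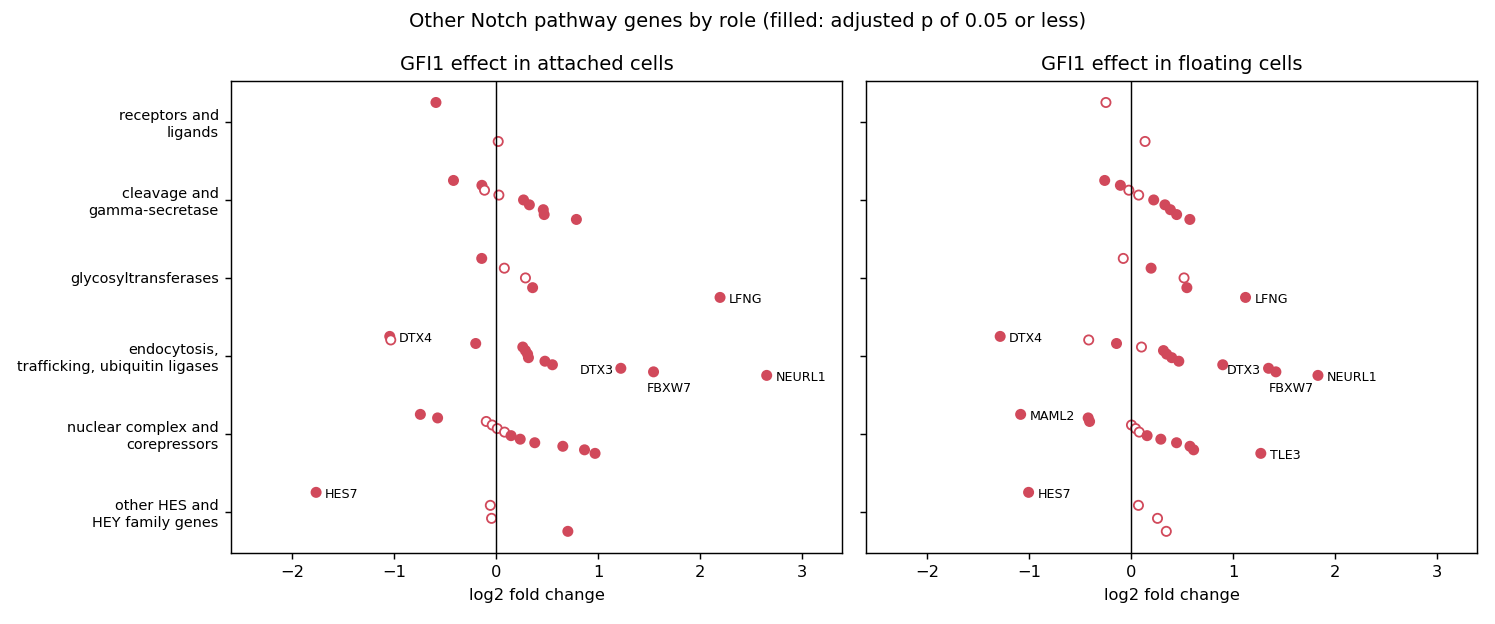
Log2 fold change with GFI1 (x axis) of the 44 other Notch pathway genes tested, by role (y axis), in attached (left) and floating cells (right), with each point a gene, filled for an adjusted p of 0.05 or less and named where the change is also at least 2-fold. LFNG is at 2.20 and 1.12, FBXW7 at 1.55 and 1.42, and HES7 at -1.77 and -1.01 in the 2 panels.

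The genes whose levels across the 12 libraries were most like those of the most variable ligand or receptor, DLL1, and of the most variable response gene, HEY1, were sought among 11885 protein-coding genes, by Pearson's r of log2 CPM. For DLL1 they were LIPH (r = 0.974), HOXC13 (0.973), PRXL2A (0.969), EPB41L5 (0.968) and TM9SF3 (0.967). Since DLL1 passed the filter only through its control libraries and held 2 to 3 counts per attached GFI1 library, its span rests on low counts. Its choice by this rule and the genes listed for it are therefore uncertain, as is its level, which may include reads of FAM120B. For HEY1 they were STARD10 (r = 0.985), PPFIBP1 (0.983), ITGA2 (0.982), DRAM2 (0.978) and FOXA3 (0.978). The 12 points fall into the 4 groups and share their libraries, so these values describe a common pattern over groups and are given with no test.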

How the data were processed

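The authors sequenced poly-A RNA of sorted cells with an Illumina NovaSeq instrument. The deposited values are raw counts per gene on hg38. The study's methods name Hisat2 and featureCounts, while the submitters' processing notes name Bowtie2 and HTSeq, so which pair made the deposited counts is unclear. The strand setting and the treatment of reads that match several genes are not given in the sources used here, which bears on DLL1 and NOTCH2.

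The test was that of edgeR 4.0.16 (R 4.3.3). The filter was filterByExpr by group (minimum count 10, minimum total count 15) and the scaling was TMM. All 12 libraries entered a single quasi-likelihood fit of 4 means, with a biological coefficient of variation of 4.86%, and 5 contrasts were tested two-sided, with Benjamini-Hochberg adjustment over the 17829 genes of each. Log2 CPM values had a prior count of 2, and levels per kilobase used the gene lengths in the deposited table. Depth was 17014188 to 20748677 counts per library, and where a group held 3 counts or fewer in each library, the ratio of pooled counts is given with its exact counting interval.

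Named from the wider list were all receptors and ligands and, per contrast, up to 3 called genes in each direction with the most extreme fold change and a mean log2 CPM of at least 1. Some of what this rule names is not reported here. The 5 genes most like DLL1 and HEY1 met the same level. The Notch genes and lists were chosen with earlier results of these data known. Alternatives were DESeq2 1.42.0, other scalings and filters, robust empirical Bayes, fits of the compared groups alone, a replicate block, a 2-fold rule and leaving out each library. The code was tested on simulated data. Promoter motifs were counted with pandas 2.3.3 and the DLL1 intervals computed with scipy 1.17.1.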

Additional observations from a re-analysis of the deposited data

Results flagged for a closer look

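For 5 of the 10 genes, the GFI1 effect differed between floating and attached cells by the interaction term of edgeR's quasi-likelihood test, which is equally a difference of the suspension effect between GFI1 and control cells. Of all genes tested, 10.8% were called in this term. The log2 difference was 0.84 for JAG2, 0.78 for HES4, 0.75 for NRARP and 0.23 for JAG1, and it was -0.44 for NOTCH3. The adjusted p was 8.43e-08 for JAG2, 0.000147 for NOTCH3, 0.00224 for HES4, 0.00535 for NRARP and 0.00842 for JAG1. For JAG2 and NRARP the fitted GFI1 effect also changed sign between the states, with non-overlapping groups in each. Their falls in attached cells were not called under every alternative. With library size only, the edgeR adjusted p was 0.338 for JAG2 and 0.139 for NRARP, and DESeq2 gave 0.0614 for NRARP. Each of the 5 interaction calls held when any of the 12 libraries was left out.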

How the results depend on the processing

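With a fold change of at least 2 required as well, the counts of the 10 genes called higher and lower became 0 and 3 for GFI1 in attached cells, 0 and 3 in floating cells, 1 and 0 for suspension of control cells, 1 and 0 in GFI1 cells, and 0 and 0 for the interaction. Under this rule the 44 wider pathway genes gave 4 and 2, 5 and 3, 1 and 0, 0 and 0, and 0 and 1. Over all genes tested, the share called in either direction under this rule was 18.2%, 17.3%, 5.1%, 2.8% and 1.35%, in the same order. Genes called higher with GFI1 in attached cells numbered 2 with upper quartile scaling, library size only or only the groups compared, and 1 to 2 when single libraries were left out. Genes called higher on suspension of GFI1 cells numbered 1 with only the groups compared and 1 to 2 with single libraries left out, and those called lower 1 to 3. Wider pathway genes called lower with GFI1 in floating cells numbered 5 with library size only and 5 to 9 with single libraries left out, those lower on suspension of GFI1 cells 5 with no low-count filter and 4 to 8, and interactions called upward 6 with robust empirical Bayes and 1 to 4, downward 2 with no low-count filter and 2 to 5. The causes were not tested.

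The sign reversed for JAG1 with GFI1 in floating cells under upper quartile scaling (0.013) and library size only (0.10), for HES4 on suspension of GFI1 cells without attached GFI1 replicate 1 or 3 or floating GFI1 replicate 1 or 2 (range over single libraries left out -0.073 to 0.166), and for the HEY1 interaction without floating GFI1 replicate 3 (range -1.07 to 0.058). None of these values passed the threshold except that of JAG1 with library size only. Library size only moved the median of all genes to 0.14 in both GFI1 comparisons, and the share of higher among all calls from 47.4% to 61.5% when attached and from 48.5% to 61.4% when floating. Of 1032 fold changes of the 10 genes under alternatives, 1001 kept their direction and call. Alternatives in which DLL1 was filtered out or had no adjusted p are not in this count. The 5 interactions called among the 10 genes kept their calls in every alternative but the 2-fold rule.

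Deviations of same-numbered libraries from their group means correlated between -0.0162 and 0.00889, so no pairing by replicate number was seen. Counting noise of single genes lowers such correlations, so they cannot settle whether the libraries were paired. A replicate block gave the same counts of the 10 genes, 1 higher and 8 lower with GFI1 in attached cells and 4 and 5 in floating cells. At this depth DLL1 and HEY1 carry the widest errors among the 10 genes.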
